A study of Sus scrofa with 30 samples.

Results

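The 4 plasma miRNAs described here are ssc-miR-190a, ssc-miR-190b, ssc-miR-455-3p and ssc-miR-455-5p. They are all rows of the deposited miRNA table that are numbered exactly miR-190 or miR-455, which makes 4 of the 411 rows, 2 for each. The numbers were selected on the levels of ssc-miR-190b and ssc-miR-455-3p, which were lower in the first week after irradiation than before it, in these same libraries. Values of the first week against those before irradiation are therefore given as a description of what chose the rows, with no test. The other pair, ssc-miR-190a and ssc-miR-455-5p, entered by number alone.

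The samples were plasma of 3 Göttingen minipigs, males of 4 months, which all received 2.2 Gy of total body irradiation (TBI). Each animal was bled 7 days and 1 day before TBI (C7 and C1), 6 hours after it (0d), and on 7 further days from 1d through 3d, 7d, 10d, 14d and 17d up to 20d. Per the study's methods, the animals also received dextrose injections after TBI, antibiotics when neutrophil counts were low, and anesthesia at the draws. The samples hold no unirradiated animal, so time, repeated bleeding, these treatments and irradiation cannot be told apart. The study pooled C7 and C1 as pre-TBI. It named the draws up to 7d Early, those of 10d and 14d Mid, that of 17d Late and the last one, 20d, LR, after a principal component analysis of the same libraries.

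Of the 30 libraries, 24 held at least 1000 counts and were used, with 24341 to 550316 counts each. The 6 left out were those of minipig 3 from 3d on, with 0 to 17 counts, so only minipigs 1 and 2 cover 3d to 20d. Pre-TBI was left with 6 libraries and Early with 10, Mid with 4, and Late and LR with 2 each. Depth differed between phases. A single count was worth 2.20 to 6.29 counts per 1e6 (CPM) at Early, but 8.79 to 23.8 CPM at Mid, 15.7 to 47.5 CPM at Late and as much as 49.1 CPM in the smallest pre-TBI library, that of minipig 1 at C7.

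MicroRNAs are short RNAs that guide Argonaute proteins to partly complementary messenger RNAs and lower the output of those messages. A hairpin precursor can give a mature strand from either arm, named 5p and 3p, and the arm that Argonaute keeps is usually the more abundant one. In plasma, miRNAs circulate in vesicles and bound to proteins, and blood cells are a main source of them. The miR-190 family has 2 genes whose mature sequences are very similar, so reads that could belong to either member may have been split between the rows, and their separate levels are uncertain to that extent. The miR-455 precursor is best known from cartilage, and it has also been described in brown fat.

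In the RefSeq annotation of the pig assembly Sscrofa11.1, MIR455 lies within COL27A1, a fibrillar collagen gene of cartilage, on chromosome 1. MIR190A lies within TLN2, which encodes talin-2, a protein that links integrins to actin, also on chromosome 1. MIR190B lies on chromosome 4 within no other annotated gene, between C4H1orf189 and TPM3, a tropomyosin gene.

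The 4 miRNAs covered a wide range of levels. At pre-TBI, the median count was 722 for ssc-miR-455-3p, 72.5 for ssc-miR-455-5p, 25 for ssc-miR-190b and 18 for ssc-miR-190a. ssc-miR-455-3p was above ssc-miR-455-5p in 24 of 24 libraries, and ssc-miR-190b was above ssc-miR-190a in 22 of 24. The single-digit counts of the miR-190 rows in many libraries leave a counting error that limits every value given for them below.

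ssc-miR-455-3p, the abundant arm of its hairpin, ranged at pre-TBI from 10.03 to 12.02 log2 CPM with a median of 11.69 (6 libraries). At Early its levels ran from 9.08 to 11.40 with a median of 9.83 (10 libraries), and 7 of the 10 lay below the lowest pre-TBI library. Minipig 1 had 9.93, 9.63, 9.08 and 10.21 over the 4 Early draws, against 11.53 and 10.03 at C7 and C1. Its lowest level of the week thus came at 3d, while its C1 level was already close to those after TBI. Minipig 2 went from 10.67 and 11.86 before TBI to 11.40 at 0d, and had 9.44, 10.28 and 9.62 over the next 3 draws. Minipig 3 had 12.02 at both C7 and C1, then 9.73 at 0d and 10.00 at 1d. At 0d, 6 hours after TBI, minipig 2 had thus stayed within its own earlier range, and minipig 3 had its lower level already. In plasma, fewer cells that release a miRNA and less of it from each cell cannot be told apart.

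The mean of ssc-miR-455-3p was 11.35 ± 0.83 log2 CPM at pre-TBI (SD, n = 6) and 9.93 ± 0.63 at Early (SD, n = 10), with a fitted log2 fold change of −1.45 (SE 0.44). This SE, like those below, was worked out from the fold change and edgeR's F statistic. At Early it comes from the contrast that chose the row and is no independent measure of error. Within the animals, the Early mean minus the own pre-TBI mean was −1.07, −1.08 and −2.16 log2 CPM in minipigs 1, 2 and 3. Of the 411 miRNAs, 21 had a lower Early fold change than this one, while the median over all 411 was 0.018 and 48.7% were below 0.

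ssc-miR-190b, one of the miR-190 pair, ranged from 4.61 to 7.52 log2 CPM at pre-TBI with a median of 6.92. At Early it ranged from 4.68 to 6.71 with a median of 5.25, and 10 of 10 Early libraries lay within the pre-TBI range. That range owes its lower end to minipig 1, which had 3 counts at C7 and 2 at C1, levels of 7.28 and 4.61. Minipig 1 then had 4.73, 5.52, 5.63 and 4.71 from 0d to 7d, none of them below its C1 library. Minipig 2 had 5.89 and 7.12 before TBI, 6.71 at 0d and 4.92, 5.63 and 5.49 over the next 3 draws. Minipig 3 had 7.52 and 6.72 before TBI and 4.68 and 5.01 at 0d and 1d. The Early mean was below the own pre-TBI mean in each minipig, which describes the choice of the row and does not test it. No Early library of minipig 1 lay below both of its pre-TBI ones, nor did the 0d library of minipig 2.

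For ssc-miR-190b the group mean was 6.52 ± 1.10 log2 CPM at pre-TBI (SD, n = 6) and 5.30 ± 0.63 at Early (SD, n = 10), with a fitted log2 fold change of −1.47 (SE 0.42), and 19 of the 411 miRNAs had a lower one. The Early mean minus the own pre-TBI mean was −0.79, −0.82 and −2.27 log2 CPM in minipigs 1, 2 and 3. Minipig 3, which has no library after 1d, thus had the lowest value for both miRNAs. Leaving this animal out moved the fold change to −0.94 for ssc-miR-190b and to −1.10 for ssc-miR-455-3p, while leaving out minipig 2 moved it to −2.09 and −1.87. The study itself listed miR-190b as higher, not lower, than its pre-TBI baseline at Early and Mid. The cause of this opposite direction was not tested.

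ssc-miR-190a, which the selection did not name, had the lowest Early fold change of the 4 at −2.0 (SE 0.51), with 5 of the 411 miRNAs below it. Its pre-TBI libraries ranged from 5.03 to 7.40 log2 CPM with a median of 6.43, on 2 to 92 counts, and its Early libraries from 3.85 to 6.37 with a median of 4.29, on 2 to 34 counts. In 9 of 10 Early libraries it was below the whole pre-TBI range, and the exception was minipig 2 at 0d with 34 counts. Minipigs 1, 2 and 3 differed from their own pre-TBI means by −1.46, −1.07 and −2.78. Without minipig 3 the fitted value was −1.36, and without minipig 2 it was −3.0.

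ssc-miR-455-5p, the other arm of the miR-455 hairpin, held nearly the same mean level in each phase, though not in each animal. Its pre-TBI libraries ranged from 7.90 to 9.08 log2 CPM with a median of 8.32, and its Early libraries from 7.88 to 8.70 with a median of 8.32. The Early fold change was −0.14 (SE 0.18), with 159 of the 411 miRNAs below it. Minipigs 1 and 2 were 0.08 and 0.13 above their own pre-TBI means at Early and minipig 3 was at −0.66. Minipig 3 had 8.21 and 9.08 log2 CPM before TBI and 7.88 and 8.09 at 0d and 1d. The mean stayed between 8.28 and 8.39 log2 CPM in all 5 phases.

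**Figure D1:**
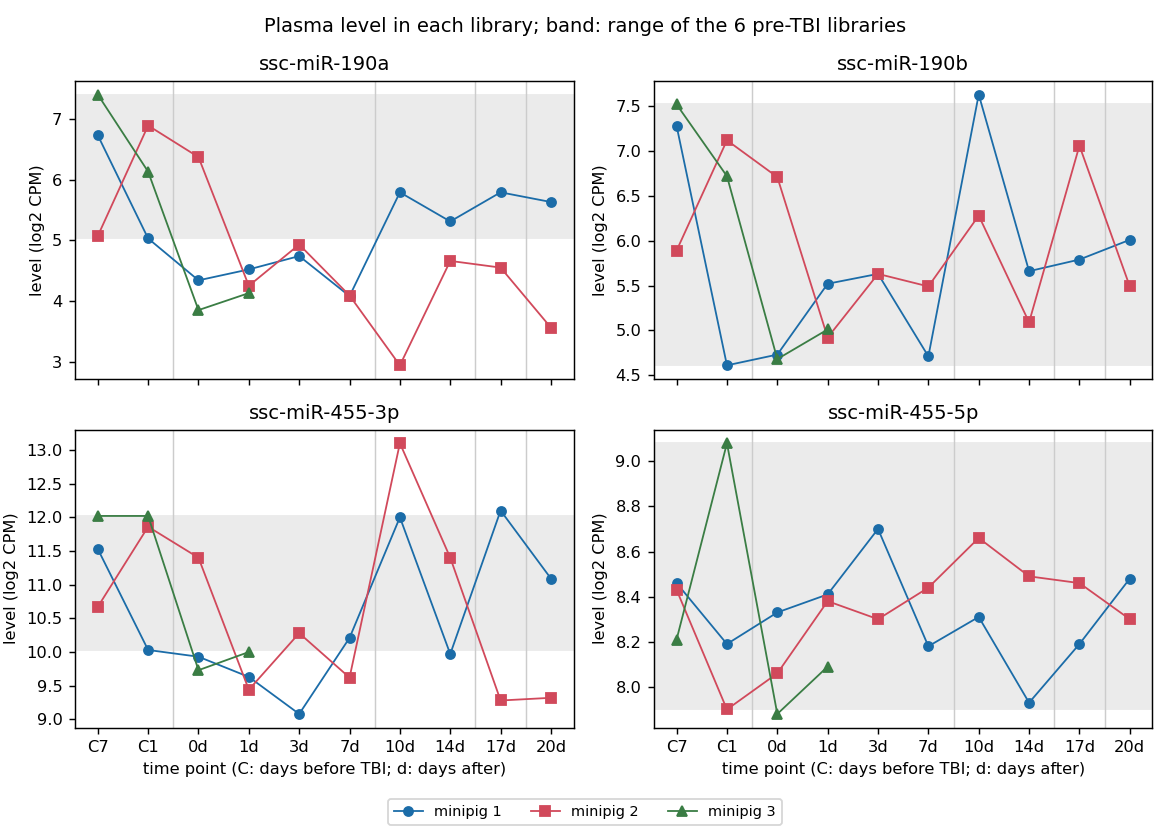
Level of each miRNA in log2 CPM (y axis, a different range in each panel) at the 10 time points (x axis, evenly spaced) in the 24 libraries used. Each line joins the libraries of 1 minipig, the band is the range of the 6 pre-TBI libraries, and vertical lines part the phases. Early libraries of ssc-miR-190a and ssc-miR-455-3p lie mostly below the band, 9 of 10 and 7 of 10, while those of ssc-miR-190b lie within it.

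Marker miRNAs of other cells and tissues also varied between these libraries. The erythrocyte miRNAs miR-451, miR-144 and miR-486 (3 of 3 rows above 0) summed to 8980 to 88300 CPM at pre-TBI and to 9240 to 57300 CPM at Early, and the log2 ratio of ssc-miR-451 to ssc-miR-23a, an index of red cell lysis, had medians of 0.83 (−1.20 to 3.43) and 1.09 (−0.32 to 3.77). At Mid, Late and LR the median of this index was −0.89 (−1.32 to 0.08), −0.88 (−1.46 to −0.30) and 0.88 (0.04 to 1.72), and the erythrocyte miRNAs summed to 11300 to 24400, 8360 to 10200 and 10000 to 20100 CPM. The platelet miRNAs miR-126, miR-191 and miR-223 (3 of 3 rows above 0) summed to a median of 13900 CPM before TBI (10600 to 20700), 16500 at Early (11000 to 74900), 6820 at Mid (4430 to 12300), 3970 for Late (2090 to 5840) and 8600 for LR (5830 to 11400). Liver miRNAs (miR-122, miR-192 and miR-194, 5 of 5 rows above 0) summed to 4320 to 5990 CPM at pre-TBI, 3190 to 8750 at Early, 2940 to 8650 in the Mid libraries, 3080 to 4800 in the Late ones and 9350 to 11100 in the LR ones, above the whole pre-TBI range. White cell miRNAs (6 of 6 rows above 0) summed to a median of 2350 CPM before TBI (1920 to 3240), 2610 at Early (1940 to 5700) and 1670 at Mid (1510 to 1970). Their median was 2550 for Late (2310 to 2800) and 1840 for LR (1660 to 2010). Muscle miRNAs (8 of 8 rows above 0) summed to 1520 to 4050 CPM before TBI and 1820 to 4230 after it. The part of these cells and tissues in the levels of the 4 miRNAs was not tested.

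The later phases were tested against pre-TBI with edgeR's quasi-likelihood test, adjusted over all 411 miRNAs by the Benjamini-Hochberg method. They use the same pre-TBI libraries as the choice of the rows did, so values below 0 in them are not independent of it. The pre-TBI group includes minipig 3, which has no later library than 1d. A call is an adjusted p under 0.05, and the libraries of a group are repeated draws from 2 or 3 animals.

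At Mid, ssc-miR-455-3p had higher levels at 10d than at 14d in both animals. Minipig 1 had 12.0 and 9.97 log2 CPM at 10d and 14d, and minipig 2 had 13.10 and 11.40. The library of minipig 2 at 10d, with 375 counts of 35762 in all, was thus the highest of all 24, and that of minipig 1 at 14d lay just under the pre-TBI range. Against pre-TBI the log2 fold change was 0.49 (SE 0.56, edgeR adjusted p = 0.97). Minipigs 1 and 2 were at 0.21 and 0.99 against their own pre-TBI means. Without minipig 2 the fitted value was −0.31, in a fit whose pre-TBI group kept minipig 3, at 12.02 log2 CPM in both libraries, which has no Mid library.

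The levels of ssc-miR-190b at Mid were 7.63 and 5.66 log2 CPM in minipig 1 and 6.28 and 5.09 in minipig 2, on 8, 4, 3 and 3 counts. Of these, 3 lay within the pre-TBI range and 1 above it, and the log2 fold change was −0.54 (SE 0.63, edgeR adjusted p = 0.97). Against their own pre-TBI means, minipigs 1 and 2 were at 0.70 and −0.82 for this miRNA. ssc-miR-190a had 2 and 3 counts in minipig 1 and 0 and 2 in minipig 2, which gave levels of 5.79, 5.31, 2.94 and 4.66. Its log2 fold change was −1.76 (SE 0.89, edgeR adjusted p = 0.808), and minipig 1 was within its own pre-TBI range while minipig 2 was below it. ssc-miR-455-5p was at −0.07 (SE 0.24, edgeR adjusted p = 0.978).

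At Mid 0 of the 4 miRNAs were called, against 0% of all 411. At an unadjusted p under 0.05, edgeR had 0 of the 4, against 5.35% of the 411, and DESeq2 had 1 of the 4, ssc-miR-190a, against 7.60% of all miRNAs.

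At Late each of the 2 animals gave a single library, and they lay on opposite sides of pre-TBI for ssc-miR-455-3p. Minipig 1 had 12.10 log2 CPM on 92 counts, above the pre-TBI range, and minipig 2 had 9.28 on 39 counts, below it. Their differences from their own pre-TBI means were 1.32 and −1.98. The log2 fold change of −0.27 (SE 0.74, edgeR adjusted p = 0.869) is thus an average of unlike values. With 1 library in each animal, this difference between the animals was not tested.

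ssc-miR-190b had 1 count in minipig 1 and 8 in minipig 2 at Late, levels of 5.79 and 7.06 log2 CPM, both within the pre-TBI range. Its log2 fold change was −0.04 (SE 0.84, edgeR adjusted p = 0.983), with minipigs 1 and 2 at −0.16 and 0.55 against their own pre-TBI means. ssc-miR-190a had 1 count in each library. The share of these 2 counts in both libraries was 0.195 times the share at pre-TBI, with a 95% counting interval of 0.0234 to 0.714 that covers counting error only, and no fitted fold is given for it. Minipig 3, which has no Late library, held most of the 165 pre-TBI counts. Against the 43 counts of minipigs 1 and 2 alone, a baseline added after the counts were seen, the ratio was 0.327 with an interval of 0.0384 to 1.25, which includes 1. ssc-miR-455-5p had 8.19 and 8.46 log2 CPM and a log2 fold change of −0.07 (SE 0.32, edgeR adjusted p = 0.936).

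At Late 0 of the 4 were called, against 4.38% of the 411. At an unadjusted p under 0.05 both edgeR and DESeq2 had 0 of the 4, where edgeR had 22.6% of the 411 and DESeq2 24.8%.

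The LR libraries were the deepest of minipigs 1 and 2, with 401408 and 550316 counts, and all 4 miRNAs had 3 counts or more. ssc-miR-455-3p was at 11.09 log2 CPM in minipig 1 and 9.32 in minipig 2, on 724 and 454 counts. The difference from the own pre-TBI mean was 0.31 in minipig 1 and −1.95 in minipig 2, so the animals again differed in sign. The log2 fold change was −1.07 (SE 0.76, edgeR adjusted p = 0.593).

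For ssc-miR-190b the LR levels were 6.01 and 5.49 log2 CPM, on 19 and 27 counts, and the log2 fold change was −1.14 (SE 0.67, edgeR adjusted p = 0.593). Minipigs 1 and 2 were at 0.07 and −1.01 against their own pre-TBI means for this miRNA. The pre-TBI group of the fit also held minipig 3, which has no LR library. ssc-miR-190a had 14 counts in minipig 1 and 3 in minipig 2, levels of 5.63 and 3.56, so that minipig 2 alone was below the pre-TBI range. Its log2 fold change was −2.0 (SE 0.88, edgeR adjusted p = 0.593), and it was −4.39 without minipig 1 and −1.32 without minipig 2. ssc-miR-455-5p, with 8.48 and 8.30 log2 CPM, gave −0.04 (SE 0.28, edgeR adjusted p = 0.961).

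At LR 0 of the 4 were called, against 0% of the 411. ssc-miR-190a was 1 of the 4 that passed an unadjusted p under 0.05 in both edgeR and DESeq2, where 5.60% of the 411 passed in edgeR and 14.2% in DESeq2.

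**Figure D2:**
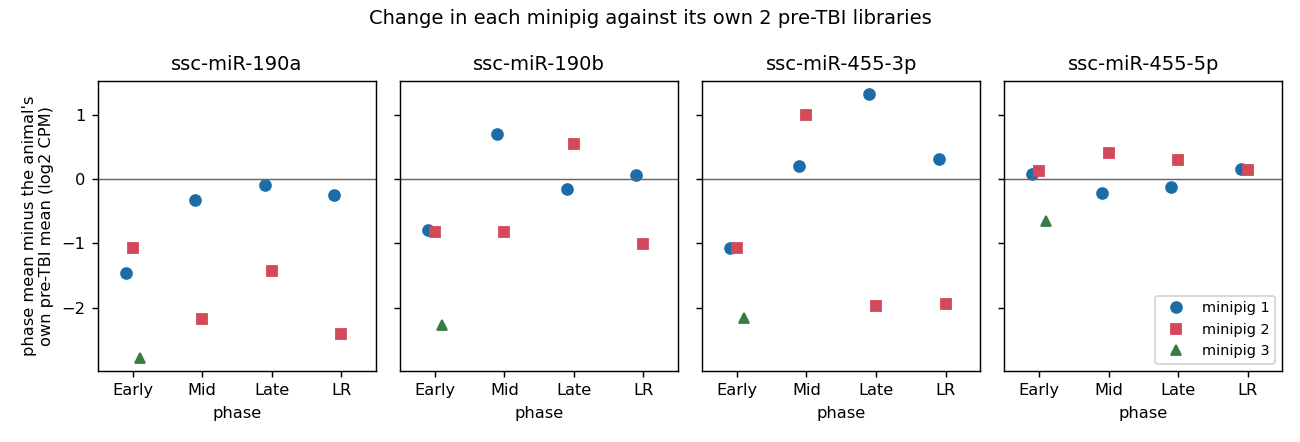
Mean log2 CPM of each phase minus the mean of the same animal's 2 pre-TBI libraries (y axis) for the 4 phases (x axis), with 1 point per minipig. Minipig 3 has Early libraries only. At Early all 3 animals are below 0 for ssc-miR-190a, ssc-miR-190b and ssc-miR-455-3p. Minipigs 1 and 2 lie on opposite sides of 0 for ssc-miR-455-3p at Late and LR, and for ssc-miR-190b at Mid, Late and LR.

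The contrasts between later phases set no pre-TBI or Early library against another, but their scaling and spread came from the fit of all 5 groups, which holds those libraries. From Mid to Late, ssc-miR-455-3p had a log2 fold change of −0.75 (SE 0.80, edgeR adjusted p = 0.621) and ssc-miR-190b one of 0.50 (SE 0.94, edgeR adjusted p = 0.785). From Late to LR, the values were −0.81 (SE 0.89, edgeR adjusted p = 0.529) for ssc-miR-455-3p and −1.10 (SE 0.97, edgeR adjusted p = 0.423) for ssc-miR-190b. Fitted on the libraries of the compared phases alone, the values were −0.70 and 0.44 from Mid to Late (edgeR adjusted p = 0.847 and 0.877) and −0.95 and −1.11 from Late to LR (edgeR adjusted p = 0.731 and 0.602), in the same order. None of these exceeded its error by much, and each sign turned when minipig 1 or minipig 2 was left out.

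Of the 4 miRNAs, 0 were called from Mid to Late, against 4.62% of the 411 (0 of the 411 when fitted on those phases alone), and 0 were called from Late to LR, against 0.73%. At an unadjusted p under 0.05, edgeR and DESeq2 had 0 of the 4 in both comparisons, where edgeR had 17.5% and 32.1% of all miRNAs and DESeq2 had 20.6% and 35.5%.

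Within the first week, the 3d and 7d libraries were compared with those of 0d and 1d, to see whether the lower levels moved during Early. Minipig 3 has libraries at 0d and 1d only, and the fit had no animal term. The log2 fold change was −0.33 (SE 0.58) for ssc-miR-455-3p, −0.10 (SE 0.57) for ssc-miR-190b and −0.55 (SE 0.78) for ssc-miR-190a, each with an edgeR adjusted p of 0.999, and 0.22 (SE 0.22, edgeR adjusted p = 0.986) for ssc-miR-455-5p. Without minipig 3, the first 3 values were −0.34, −0.30 and −0.86. Without the library of minipig 2 at 0d, they turned to 0.11, 0.52 and 0.51, an alternative added after the levels were seen. 0 of the 4 were called, against 0% of the 411, and 0 of the 4 by edgeR and DESeq2 at an unadjusted p under 0.05, where edgeR had 3.65% and DESeq2 6.83%.

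The spread before irradiation was compared in the same way. From C7 to C1 the log2 fold change was 0.03 (SE 0.70) for ssc-miR-455-3p, −0.47 (SE 0.66) for ssc-miR-190b, −0.49 (SE 0.81) for ssc-miR-190a and 0.15 (SE 0.31) for ssc-miR-455-5p, each with an edgeR adjusted p of 0.997. These small averages hid opposite moves, since ssc-miR-455-3p went from 11.53 to 10.03 log2 CPM in minipig 1 and from 10.67 to 11.86 in minipig 2. None of the 4 was called, against 0% of the 411, and 0 of the 4 passed an unadjusted p under 0.05 in edgeR or DESeq2, where edgeR had 0.73% and DESeq2 3.89%.

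**Figure D3:**
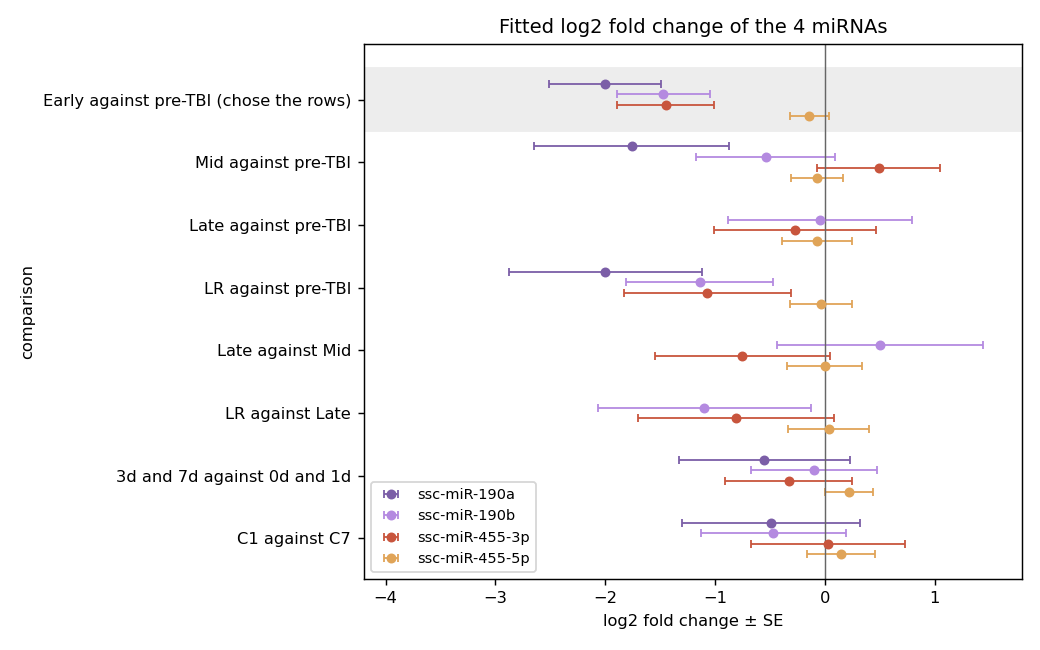
Fitted log2 fold change with its SE, worked out from edgeR's F statistic (x axis), of the 4 miRNAs in each comparison (y axis). The shaded comparison chose the rows and carries no test, and ssc-miR-190a has no fitted fold where Late is involved, with 2 counts there. In the other comparisons none of the 4 was called.

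The ratio of the 2 arms of miR-455 was taken within each library, where the scaling between libraries drops out. The 3p arm made up 78.5% to 94.1% of the miR-455 counts at pre-TBI, with a median of 89.1%, and 56.7% to 91.2% at Early, with a median of 77.1%. In minipig 1 the share was 89.6% at C7 (exact 95% Clopper-Pearson interval 79.7% to 95.7%) and 78.5% at C1 (71.2% to 84.6%). It then had 75.5%, 70.2%, 56.7% (50.2% to 62.9%) and 80.6% over the 4 Early draws, 93.0% (88.3% to 96.2%) and 80.9% over the Mid draws, 93.9% at Late and 86.1% at LR. The C1, 7d and 14d libraries of this animal thus lay close together, and its 3d library was the lowest. In minipig 2 the share was 82.8% at C7 (79.0% to 86.1%) and 94.1% at C1 (92.6% to 95.4%), and 91.2%, 67.8% (63.2% to 72.1%), 80.0% and 69.6% over the Early draws. It then had 95.7% (93.1% to 97.5%) and 88.5% over the Mid draws, 63.9% at Late and 67.2% at LR. Its 0d library thus lay between its pre-TBI ones, and its 17d and 20d libraries were close to those of 1d and 7d. Minipig 3 had 93.5% and 88.6% before TBI and 78.7% and 79.3% at 0d and 1d. The intervals cover counting error alone, because PCR copies of a molecule could not be told from separate molecules.

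On the log2 scale, the ratio of 3p to 5p was 3.01 ± 0.84 at pre-TBI (SD, n = 6), 1.68 ± 0.79 at Early (SD, n = 10) and 3.30 ± 1.02 at Mid (SD, n = 4). The Early mean minus the own pre-TBI mean was −1.16, −1.22 and −1.49 in minipigs 1, 2 and 3, a description again, since it holds the level that chose the row. At Mid the mean difference from pre-TBI was 0.50, with 0.42 in minipig 1 and 0.57 in minipig 2, and a two-sided exact permutation test that moved the labels within each animal gave p = 0.5. At Late the mean difference was −0.42 (1.46 and −2.30, exact permutation p = 0.778), and at LR it was −0.98 (0.15 and −2.10, exact permutation p = 0.444). The smallest p that the animals and libraries allow is 0.0556 at Mid and 0.111 at Late and LR, so no result could have passed 0.05.

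**Figure D4:**
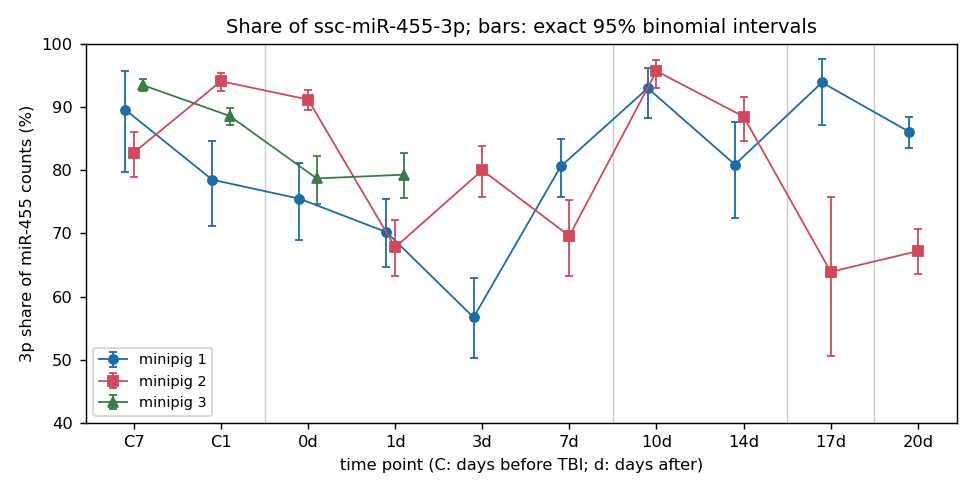
Share of ssc-miR-455-3p in the counts of both miR-455 arms (y axis, from 40% to 100%) at the 10 time points (x axis, evenly spaced). Lines join the libraries of 1 minipig, bars are exact 95% binomial intervals for counting error, and vertical lines part the phases. The share is above 50% in all 24 libraries, lowest at 56.7% in minipig 1 at 3d and highest at 95.7% in minipig 2 at 10d.

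Over the 24 libraries, the log2 CPM of ssc-miR-190a and ssc-miR-190b had a Pearson correlation of 0.685, that of ssc-miR-190b and ssc-miR-455-3p one of 0.588, and that of the 2 arms of miR-455 one of 0.148. Outside the 4 rows, 401 miRNAs had a median of at least 10 counts. Among them the levels most like ssc-miR-455-3p were those of ssc-miR-221-5p (r = 0.935), ssc-miR-9787-3p (r = 0.928) and ssc-miR-9838-5p (r = 0.898). Those most like ssc-miR-190b were ssc-miR-9814-3p (r = 0.745), ssc-miR-9827-5p (r = 0.740) and ssc-miR-208b (r = 0.736), the last of them made from an intron of a myosin gene of heart and slow muscle. These are descriptions over libraries that come from only 3 animals and share their depth and scaling. The libraries include the pre-TBI and Early ones, on which both ssc-miR-190b and ssc-miR-455-3p were chosen as lower at Early. A positive correlation between those rows is thus partly set by the choice. The Early log2 fold changes of these 6 miRNAs were between −2.38 and −1.36, in the same contrast that chose the rows.

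Other miRNAs known from the tissues of miR-455 were followed as groups. Of 7 rows known from cartilage and mesenchyme (miR-140, miR-199, miR-214 and miR-675), 0 were called higher or lower in any tested comparison, where 0% to 4.62% of the 411 were called. Their median log2 fold change was −0.24 at Mid, −0.12 at Late and 0.16 at LR, beside 0.05, 0.08 and −0.01 over all 411. ssc-miR-140-3p, the cartilage miRNA made within the WWP2 gene, was at −0.59 (SE 0.32, edgeR adjusted p = 0.818) at Mid and at −0.75 (SE 0.43, edgeR adjusted p = 0.295) at Late. At LR it was at −0.50 (SE 0.41, edgeR adjusted p = 0.624). The next most abundant row, ssc-miR-214, was at 0.33 (SE 0.37, edgeR adjusted p = 0.97) at Mid and −0.12 (SE 0.48, edgeR adjusted p = 0.929) at Late. It was at 0.56 (SE 0.45, edgeR adjusted p = 0.607) at LR.

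Of 18 rows known from brown fat (miR-27, miR-133, miR-155, miR-182, miR-193, miR-196, miR-203, miR-365 and miR-378), 1 was called higher at Late and in Late against Mid, ssc-miR-182, where 4.38% and 4.62% of the 411 were called, and 0 were called in the other tested comparisons. Their median log2 fold change was −0.02 at Mid, 0.17 at Late and 0.08 at LR, beside the same 0.05, 0.08 and −0.01 over all 411. The most abundant of them, ssc-miR-27a, which holds back fat cell formation, was at −0.92 (SE 0.45, edgeR adjusted p = 0.808) at Mid and −1.44 (SE 0.61, edgeR adjusted p = 0.176) at Late. It was at 0.56 (SE 0.53, edgeR adjusted p = 0.682) at LR and at 2.0 (SE 0.71, edgeR adjusted p = 0.0961) in LR against Late. None of these passed the threshold, and at Mid and Late this row lay below the median of its list. In this list, miR-133 was also a muscle marker and miR-155 a white cell marker. The list thus does not stand for brown fat alone.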

How the data were processed

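Small RNA of plasma was sequenced from libraries made with the TruSeq small RNA kit. Per the labels and the study's methods, the authors used bcl2fastq for demultiplexing, cutadapt for trimming and Bowtie for alignment (pig build ssc5; the labels give Bowtie2 2.2.3.0), and then counted known miRNAs. The deposited table holds whole-number counts of 411 ssc-miRNAs in each of 30 libraries, not normalized. How these 411 were chosen is not given in the sources used here.

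Groups came from the sample labels, and the phases are those of the study. The 24 libraries with at least 1000 counts were tested with edgeR 4.0.16 (R 4.3.3) by its quasi-likelihood test, with TMM normalization, a filter of CPM above 0.5 in at least 10% of the libraries (3), which all 411 passed, and Benjamini-Hochberg adjustment. Levels per library are log2 CPM with a prior count of 2, and fold changes are edgeR's with its default prior count. The phase comparisons came from 1 fit of 5 groups without an animal term, and the other comparisons from fits of 6 groups and 10 time points. Python 3.11.15 served for group means, exact tests and correlations (scipy 1.17.1, pandas 2.3.3, numpy 2.4.6) and for the plots (matplotlib 3.10.9). The fitting step was tested on simulated data.

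The replicate number is the animal, so libraries are paired by design. Deviations from phase means correlated at 0.169 over 78 pairs of the same minipig and at −0.102 over 130 pairs of different minipigs. No 2 libraries of a phase agreed within sampling noise, with a chi-square per degree of freedom of at least 21.8 over 68 pairs.

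The members, the context lists and the comparisons were chosen with earlier results of these data known. Named miRNAs are every miR-190 and miR-455 row, the 3 other miRNAs of highest correlation with ssc-miR-190b and with ssc-miR-455-3p, and the most abundant of each context list. The next most abundant of the cartilage list, ssc-miR-214, is named too, as is ssc-miR-182, which was named after its value was seen because it was the single call of its list. Marker miRNAs of red cells, platelets, white cells, liver and muscle were summed per library. Alternatives were other scalings, DESeq2 1.42.0, other filters, the animal as a block, other baselines and left-out animals, and, added after the data were seen, leaving out the smallest library or that of minipig 2 at 0d, and a counting ratio against the animals with a Late library.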

Additional observations from a re-analysis of the deposited data

Results flagged for a closer look

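The library of minipig 2 at 0d, 6 hours after TBI, stood apart from the other Early libraries for 3 of the 4 miRNAs. It had 6.37 log2 CPM of ssc-miR-190a, where the other 9 Early libraries had 3.85 to 4.93. It had 6.71 log2 CPM of ssc-miR-190b, where the others had 4.68 to 5.63, and 11.40 log2 CPM of ssc-miR-455-3p, where the others had 9.08 to 10.28. Its gap to the next library, divided by the range, was 0.571, 0.532 and 0.482. Each was larger than Dixon's 95% critical value for 10 samples, 0.466. These were 3 of 15 groups of this kind that were examined, where chance gives about 5% if samples are independent. The Early libraries are repeated draws from 3 animals, and the 3 groups owe their flags to 1 library. Without it, the Early log2 fold changes were −2.66, −1.81 and −1.72 in place of −2.0, −1.47 and −1.45.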

How the results depend on the processing

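Outside Early, and apart from ssc-miR-190a in the comparisons with Late, which has no fitted value, 0 of 287 values of the 4 miRNAs under the alternatives were called, with edgeR or DESeq2 adjusted p from 0.107 (ssc-miR-455-3p, Late against Mid without minipig 1) to 1, and signs turned in 33. Among these, DESeq2 gave no adjusted p for ssc-miR-190b in LR against Late. At Early, leaving out an animal gave −3.0 to −1.36 for ssc-miR-190a, −2.09 to −0.94 for ssc-miR-190b, −1.87 to −1.10 for ssc-miR-455-3p and −0.33 to 0.13 for ssc-miR-455-5p. The sign held without each animal, but the size moved, for ssc-miR-190a at Mid (−2.99 to −1.27) and LR (−4.39 to −1.32), ssc-miR-190b at Mid (−1.58 to −0.11) and LR (−1.64 to −0.77) and ssc-miR-455-3p at LR (−2.44 to −0.69). The fits without minipig 2 kept minipig 3 at pre-TBI, which has no Mid or LR library. Against its own pre-TBI mean, minipig 1 was higher for ssc-miR-190b at Mid (0.70) and LR (0.07). It was also higher for ssc-miR-455-3p at LR (0.31), but lower for ssc-miR-190a at Mid (−0.33) and LR (−0.25). Where signs turned, the ranges without 1 animal were: at Mid −0.31 to 0.86 (ssc-miR-455-3p) and −0.42 to 0.16 (ssc-miR-455-5p), at Late −1.52 to 0.33 (ssc-miR-190b), −2.54 to 0.20 (ssc-miR-455-3p) and −0.65 to 0.075 (ssc-miR-455-5p), and at LR −0.23 to 0.15 (ssc-miR-455-5p). In Late against Mid they were −1.39 to 1.62 (ssc-miR-190b) and −3.24 to 0.50 (ssc-miR-455-3p), and in LR against Late −1.68 to 0.38 (ssc-miR-190b), −0.88 to 0.10 (ssc-miR-455-3p) and −0.11 to 0.42 (ssc-miR-455-5p). For 3d and 7d they were −0.86 to 0.56 (ssc-miR-190a), −0.30 to 0.42 (ssc-miR-190b) and −0.34 to 0.035 (ssc-miR-455-3p), and for C1 against C7 −1.69 to 0.95 (ssc-miR-190a), −1.44 to 0.16 (ssc-miR-190b), −0.54 to 0.33 (ssc-miR-455-3p) and −0.43 to 0.35 (ssc-miR-455-5p). The arm ratio ranged from −2.30 to 1.46 at Late and from −2.10 to 0.15 at LR.

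Signs also turned under other alternatives. ssc-miR-190b at Late was 0.19 with C1 only as the baseline, and for 3d and 7d 0.079 by library size and 0.52 without minipig 2 at 0d, where ssc-miR-190a and ssc-miR-455-3p were 0.51 and 0.11. ssc-miR-455-5p was 0.0048 in Late against Mid with the animal as a replicate block and 0.053 with only those groups, which gave −0.00093 in LR against Late. ssc-miR-455-3p in C1 against C7 was −0.028 by library size, −0.054 by RLE, −0.054 by DESeq2, −0.0049 with the replicate block and −0.077 without the smallest library.

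Counts over all 411 moved more. Late against pre-TBI had 18 calls, but 10 by library size, 0 with only those groups, 0 with C7 as the baseline, 36 without the smallest library and 9 to 77 without 1 animal. LR against pre-TBI had 0, and 0 to 6 without 1 animal. Late against Mid had 19, but 12 by library size, 0 with only those groups and 13 to 45 without 1 animal. LR against Late had 3, but 0 by library size, 66 by DESeq2, 6 with the stricter filter, 23 with the replicate block, 0 with only those groups and 0 to 66 without 1 animal. DESeq2 had 2 for 3d and 7d against 0d and 1d. The replicate block changed no call of the fitted values of the 4 miRNAs, and the cause of these moves was not tested.

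At an unadjusted p under 0.05, the number of the 411 ranged over the alternatives from 11 to 38 at Mid (22 as reported), 38 to 132 at Late (93), 13 to 65 at LR (23), 29 to 108 for Late against Mid (72), 39 to 145 for LR against Late (132), 8 to 35 for 3d and 7d (15) and 1 to 32 for C1 against C7 (3).

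ssc-miR-190a did not pass the stricter filter of 10 counts and has no value there. Depth limits the miR-190 rows at Mid and Late, with 0 to 8 counts per library, and after 1d all values rest on 2 animals.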
